A study of Homo sapiens with 6 samples.

Results

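The Wnt pathway and its central protein beta-catenin were examined through 10 genes in MDA-MB-231 cells, an established triple-negative breast cancer line, after depletion of the zinc finger transcription factor ZNF148. The genes, chosen by name with earlier results of these data known, were CTNNB1, WNT5A, WNT5B, DKK1, AXIN1, AXIN2, FZD2, LRP6, TCF7L2 and ROR1. Each symbol matched 1 row of the deposited expression table, so 10 of its 24108 rows are described, and 8 of the 10 passed the filter on low values. Cells received a lentiviral short hairpin RNA (shRNA) against luciferase (shCtr, 3 replicates) or against ZNF148 (shZNF148, 3 replicates). In both groups transduction took 48 h and was followed by 24 h in 0.5 µg/ml puromycin. One hairpin represents each group, so a response to ZNF148 loss and a response to that hairpin alone cannot be told apart. No source states that the replicates came from separate cultures, and p-values measure only the spread between these samples.

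Wnt proteins are secreted ligands that bind Frizzled receptors. With the co-receptors LRP5 and LRP6, they stop a complex built on the scaffold AXIN1 from marking beta-catenin for destruction. Stabilised beta-catenin then enters the nucleus and activates genes together with TCF/LEF factors such as TCF7L2. DKK1 is a secreted inhibitor that binds the co-receptors, and it is itself a target gene of the pathway. ROR1 belongs to a branch of Wnt signalling that does not depend on beta-catenin and is linked to cell movement and polarity in breast cancer.

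Of the 8 tested members, DKK1 and TCF7L2 fell and ROR1 rose in shZNF148 cells. DKK1 was at 40.9% of its control mean and TCF7L2 at 52.2%, while ROR1 was at 176%. These calls, 1 higher and 2 lower, stand beside 1.83% of all tested rows called higher and 3.66% called lower. The scaffold AXIN1 was also significantly lower, by less than 1.5-fold. None of DKK1, TCF7L2, ROR1 and AXIN1 passed the adjusted test when any 1 of the shCtr samples was left out. The transcript of beta-catenin itself, CTNNB1, had overlapping values in the 2 groups. The ligand WNT5B and the receptor FZD2 were lower in every shZNF148 sample than in any shCtr sample, but did not pass the adjusted test. Groups were apart in that direction in 21.0% of all tested rows.

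Values were in FPKM, which divides the sequenced fragments of a gene by its length and by a measure of library size. Levels are thereby roughly comparable between genes, but the annotation and scaling used here are not known. How many reads each value rests on is not known. From the steps between low values, the library size used in scaling was between 0.806 and 1.13 times that of shCtr replicate 1. The 11777 rows whose mean reached 1 FPKM were tested as log2(FPKM + 1) with limma, with Benjamini-Hochberg adjustment over all of them. For genes of low level, log2 fold changes computed this way are smaller than the ratio of the means. Called rows had both an adjusted p under 0.05 and, on this scale, a difference above 1.5-fold. ZNF148 itself was 3.72, 4.36 and 4.30 FPKM in shCtr replicates 1, 2 and 3, and 0.914, 0.282 and 0.834 FPKM in shZNF148 replicates 1, 2 and 3, so the knockdown was present in each labelled sample and deepest in replicate 2. Its mean in shZNF148 was 16.4% of that in shCtr (log2 fold change -1.63, limma adjusted p = 0.00990), and without shCtr replicate 1 or 3 the limma adjusted p was 0.0603 and 0.0568.

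The line was checked against markers. VIM, CD44, AXL and MSN, which mark this mesenchymal-like line, were all expressed, with a summed level of 2868 to 2988 FPKM in shCtr and 2365 to 2452 FPKM in shZNF148. All 4 were lower in every shZNF148 sample than in any shCtr sample, as were 21.0% of all tested rows. CD44 and AXL passed the adjusted test (limma adjusted p = 0.0185 and 0.0364), and VIM and MSN did not (limma adjusted p = 0.0563 and 0.0562). The part of these differences in the results below was not tested. Of 4 genes listed as absent, the oestrogen receptor gene ESR1 was at 0 throughout, and PGR and CDH1 stayed below 0.5 FPKM. GATA3 went against the list at 7.53 to 9.24 FPKM. The blood and endothelial markers PTPRC, CD3E, PECAM1 and VWF summed to at most 0.208 FPKM in any sample. Of the fibroblast markers, PDGFRB reached 6.67 FPKM and was lowest in shZNF148 replicate 2 (2.00 FPKM), LUM reached 0.323 FPKM, and DCN was at 0 in 5 samples and at 2.82 FPKM in shCtr replicate 2.

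The hairpin against ZNF148 is shown because it defines the groups. Its 21-base target, in capitals, was found in 8 of the 12 GENCODE release 44 transcripts of ZNF148 and in 0 transcripts of the 10 members.
shZNF148 target: CCCTTGGTGAATGTAAATGAT

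The promoters of the 3 called members are shown because ZNF148 is known to bind GC-rich DNA, and because TCF/LEF factors bind the promoters of Wnt target genes. Each sequence is the 250 bases before the RefSeq gene start on GRCh38.p14, 5′ to 3′ on the gene's strand. Capitals mark the word CCCTCCC and the TCF/LEF core words CTTTGAA and CTTTGAT, each searched on both strands with overlapping matches counted. Other forms of the core and other GC-rich runs were not searched, so the counts cover these words only. A window with 0 matches can still be rich in G and C.
DKK1, chr10:52314031-52314280, plus strand: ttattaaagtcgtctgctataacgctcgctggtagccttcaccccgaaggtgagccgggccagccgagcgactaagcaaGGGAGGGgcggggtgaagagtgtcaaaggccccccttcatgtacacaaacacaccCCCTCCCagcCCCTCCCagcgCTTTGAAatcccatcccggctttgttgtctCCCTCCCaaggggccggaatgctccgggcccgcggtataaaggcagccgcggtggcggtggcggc
TCF7L2, outermost start, chr10:112949997-112950246, plus strand: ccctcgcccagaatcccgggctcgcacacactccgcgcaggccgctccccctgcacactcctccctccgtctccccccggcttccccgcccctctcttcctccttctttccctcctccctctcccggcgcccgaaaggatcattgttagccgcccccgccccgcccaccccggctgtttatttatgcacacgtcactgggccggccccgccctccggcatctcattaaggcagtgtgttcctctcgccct
ROR1, chr1:63773767-63774016, plus strand: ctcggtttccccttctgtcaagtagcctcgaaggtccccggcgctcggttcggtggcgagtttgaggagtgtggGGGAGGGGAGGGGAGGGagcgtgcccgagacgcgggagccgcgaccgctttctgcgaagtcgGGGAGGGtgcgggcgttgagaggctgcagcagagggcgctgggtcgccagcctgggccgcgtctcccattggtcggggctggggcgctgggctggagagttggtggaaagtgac

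The DKK1 window held 4 matches of the C-rich word and 1 of the TCF/LEF core. The ROR1 window held 4 matches of the C-rich word, 3 of them overlapping one another, and 0 of the core. The outermost TCF7L2 window held neither, and its other 2 start sites held 1 C-rich match each. Of all 35116 RefSeq windows of this length, 24.7% held the C-rich word and 5.94% the TCF/LEF core. For CTNNB1, AXIN1 and WNT5B, 0 matches of either word were found, and the second of the WNT5A windows held 1 C-rich match. A match is a description of letters and not of binding, and chromatin occupancy was not analysed here. In total 7 of the 10 members had a promoter entry, and FZD2, LRP6 and AXIN2 were not matched.

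**Figure D1:**
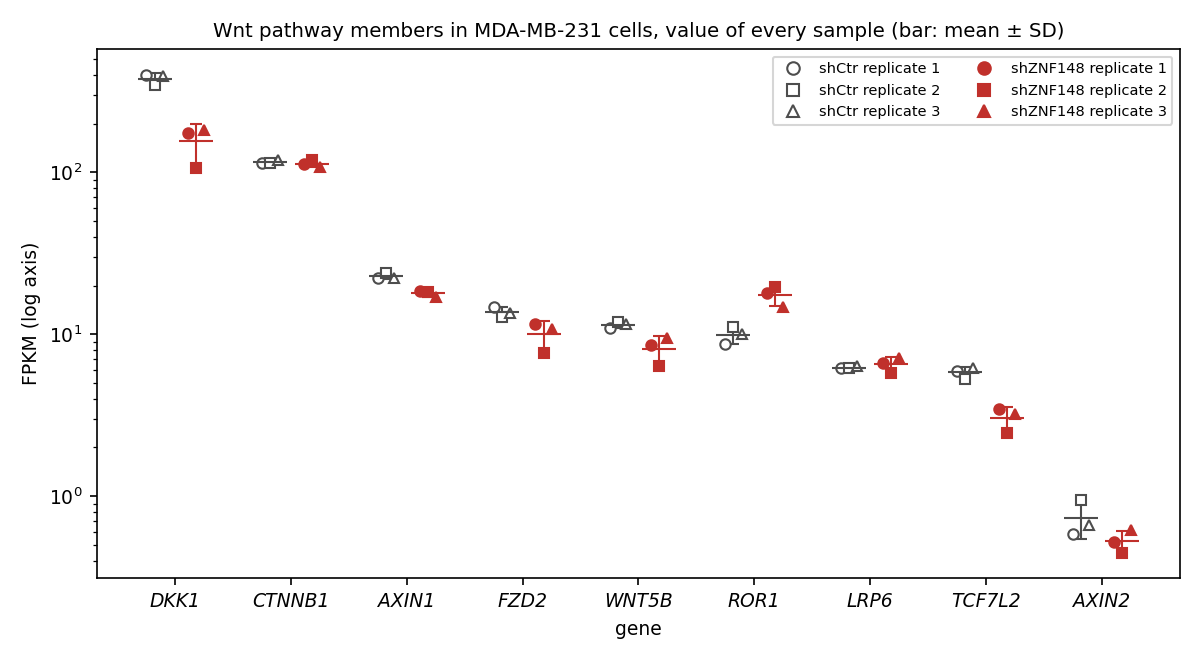
FPKM on a log axis for 9 of the members in all 6 samples, with the mean ± SD of each group; WNT5A, at 0 in 5 samples, cannot be drawn on a log axis. The shCtr values of DKK1 lie between 347 and 401 FPKM and the shZNF148 values between 106 and 184 FPKM, whereas the groups overlap for CTNNB1, LRP6 and AXIN2.

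Levels in control cells spanned a wide range. DKK1 was the most abundant member at 380 ± 29.4 FPKM (SD, n = 3), followed by CTNNB1 at 116 ± 2.54 FPKM (SD, n = 3). AXIN1, FZD2, WNT5B and ROR1 followed in that order, from 22.8 to 9.94 FPKM in their means. LRP6 and TCF7L2 were at 6.23 and 5.83 FPKM, AXIN2 was at 0.731 FPKM, and WNT5A was almost absent. Among neighbours in this order, the ranges of WNT5B and ROR1 overlapped, as did those of LRP6 and TCF7L2, and the others were apart. In shZNF148 cells ROR1 moved up to the fourth place, where its range overlapped that of AXIN1. There the range of DKK1 also overlapped that of CTNNB1, since DKK1 was at 106 FPKM in replicate 2 and CTNNB1 ranged from 108 to 119 FPKM.

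DKK1, on chromosome 10 of GRCh38 from 52314281 to 52318042 (plus strand), encodes the secreted inhibitor. It was 401, 347 and 392 FPKM in shCtr replicates 1, 2 and 3, and 176, 106 and 184 FPKM in shZNF148 replicates 1, 2 and 3. The groups were far apart, and shZNF148 replicate 2 was the lowest sample. The mean fell from 380 ± 29.4 to 155 ± 42.6 FPKM (mean ± SD, n = 3 per group), 2.45-fold lower. On the log2 scale this was -1.32 (standard error 0.21, 95% interval -1.81 to -0.83, limma adjusted p = 0.0177). In bulk RNA, fewer expressing cells and less RNA per cell cannot be told apart, here and in every result below. Without shCtr replicate 1, 2 or 3 the log2 fold change was -1.28, -1.39 and -1.30, with limma adjusted p = 0.0834, 0.0541 and 0.0731. It still passed without each of the shZNF148 replicates.

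Among the other secreted inhibitors and their receptors, DKK1 stood alone in abundance. Of 16 such genes, 3 passed the filter, and 1 of these, DKK1, was called lower, beside 3.66% of all tested rows. KREMEN1, a receptor for Dickkopf proteins and second to DKK1 in its mean over all 6 samples, averaged 3.31 ± 0.281 FPKM in control and 3.78 ± 0.170 FPKM in depleted cells (mean ± SD, n = 3 per group), and did not pass (limma adjusted p = 0.308). SOST, another inhibitor that binds the co-receptors, was 2.67, 4.47 and 3.25 FPKM in shCtr and 3.41, 0.670 and 3.25 FPKM in shZNF148. DKK2, DKK4, SFRP2, WIF1 and APCDD1 were listed at 0 in all 6 samples.

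TCF7L2, on chromosome 10 from 112950247 to 113167678 (plus strand), encodes a DNA-binding partner of beta-catenin. It was 5.95, 5.31 and 6.21 FPKM in shCtr replicates 1, 2 and 3, and 3.44, 2.46 and 3.23 FPKM in shZNF148 replicates 1, 2 and 3. The groups did not overlap, and shZNF148 replicate 2 was again the lowest. The mean fell from 5.83 ± 0.461 to 3.04 ± 0.518 FPKM (mean ± SD, n = 3 per group). Its log2 fold change, -0.76, was beyond the replicate spread (standard error 0.12, 95% interval -1.06 to -0.46, limma adjusted p = 0.0196). Without shCtr replicate 1, 2 or 3 it was -0.75, -0.82 and -0.72, with limma adjusted p = 0.0900, 0.0531 and 0.0833. With a pseudocount of 5 FPKM it was -0.43, below 1.5-fold.

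The other TCF/LEF genes were lower in abundance and none was called. TCF7L1 was 1.61, 1.21 and 1.32 FPKM in shCtr and 2.11, 3.59 and 2.26 FPKM in shZNF148, with all shZNF148 values above all shCtr values (log2 fold change 0.60, limma adjusted p = 0.0670). LEF1 ranged from 1.45 to 2.78 FPKM in shCtr and from 1.80 to 2.65 FPKM in shZNF148, and TCF7 was below the filter. Of 15 genes for beta-catenin and nuclear factors, 13 were tested and 2 were lower at the adjusted p, beside 8.13% of all tested rows. CTNNBIP1, which encodes an inhibitor of the beta-catenin and TCF interaction, was the other one to pass the adjusted p, falling from 11.6 ± 0.329 to 8.05 ± 1.54 FPKM (mean ± SD, n = 3 per group; log2 fold change -0.49, limma adjusted p = 0.0478). CTNNBIP1 passed in only 1 of the 6 fits with a sample left out, that without shZNF148 replicate 2; in the others, without shCtr replicate 1, 2 or 3 or shZNF148 replicate 1 or 3, the limma adjusted p was 0.143, 0.118, 0.128, 0.115 and 0.0871. It also did not pass without the filter (0.0727), with the filter at 0.1 FPKM (0.0561) or without the mean-variance trend (0.0533). BCL9L, a beta-catenin co-activator, was 47.3 ± 1.68 and 51.8 ± 6.10 FPKM (mean ± SD, n = 3 per group) and did not pass (limma adjusted p = 0.394).

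CTNNB1, on chromosome 3 from 41194741 to 41260096 (plus strand), encodes beta-catenin, which also links cadherins to the cytoskeleton. It was 114, 115 and 119 FPKM in shCtr replicates 1, 2 and 3, and 112, 119 and 108 FPKM in shZNF148 replicates 1, 2 and 3. The values of the groups overlapped. The log2 fold change was -0.04 with a 95% interval of -0.18 to 0.11 (limma adjusted p = 0.699). With quantile normalization the sign turned, to 0.02.

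Of 7 cadherin and catenin genes of cell adhesion, 3 were tested and 1, JUP, was called lower, beside 3.66% of all tested rows. JUP, which encodes plakoglobin, a close relative of beta-catenin found in desmosomes and adherens junctions, was 28.5, 29.3 and 28.6 FPKM in shCtr and 17.8, 20.9 and 15.9 FPKM in shZNF148. The groups did not overlap, and the log2 fold change was -0.65 (standard error 0.10, limma adjusted p = 0.0179). JUP lost its pass without shCtr replicate 1, 2 or 3 or shZNF148 replicate 1 (limma adjusted p = 0.0834, 0.0586, 0.0749 and 0.0533), and without shZNF148 replicate 3 its log2 fold change of -0.56 was under 1.5-fold. CTNNA1, which encodes alpha-catenin, averaged 168 ± 2.11 FPKM in shCtr and 170 ± 10.9 FPKM in shZNF148 (mean ± SD, n = 3 per group). The row that joins CTNND1, TMX2 and their read-through transcript, which cannot be assigned to 1 of them, was 71.1 ± 3.72 and 76.4 ± 2.70 FPKM (mean ± SD, n = 3 per group). CTNNA1 and the joined row did not pass (limma adjusted p = 0.941 and 0.304).

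AXIN1, on chromosome 16 from 287440 to 352723 (minus strand), encodes the scaffold of the destruction complex. It was 22.2, 23.8 and 22.3 FPKM in shCtr replicates 1, 2 and 3, and 18.5, 18.1 and 17.0 FPKM in shZNF148 replicates 1, 2 and 3. Each group was tight and the groups were apart. The mean fell from 22.8 ± 0.888 to 17.9 ± 0.792 FPKM (mean ± SD, n = 3 per group), with a log2 fold change of -0.33 (standard error 0.07, limma adjusted p = 0.0293), short of the 1.5-fold threshold on this scale. Without shCtr replicate 1, 2 or 3 the limma adjusted p was 0.101, 0.0843 and 0.0990, and without shZNF148 replicate 1 or 3 it was 0.0640 and 0.0597.

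AXIN2, on chromosome 17 from 65528563 to 65561648 (minus strand), encodes a second scaffold and is widely used as a readout of beta-catenin activity. It was 0.585, 0.940 and 0.667 FPKM in shCtr replicates 1, 2 and 3, and 0.518, 0.445 and 0.617 FPKM in shZNF148 replicates 1, 2 and 3. The values overlapped, and the gene was below the filter on low values. With the filter lowered to a mean of 0.1 FPKM, its log2 fold change was -0.18 (standard error 0.11, limma adjusted p = 0.313). At such a level the number of reads limits what can be seen.

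Of 18 genes of the destruction complex and Dishevelled group, 17 were tested and 2 passed the adjusted p, both lower and both under 1.5-fold. Besides AXIN1 this was CSNK1E, a casein kinase that acts on Dishevelled, which fell from 74.0 ± 2.96 to 59.6 ± 1.92 FPKM (mean ± SD, n = 3 per group; log2 fold change -0.31, limma adjusted p = 0.0272). CSNK1E lost its pass without shCtr replicate 1, 2 or 3 or shZNF148 replicate 1 (limma adjusted p = 0.112, 0.0598, 0.105 and 0.0699). Over all tested rows 8.13% were lower at the adjusted p, so 2 of 17 is near that share. The casein kinase CSNK1A1, which primes beta-catenin for GSK3, was at 64.4 to 78.5 FPKM in shCtr and 66.4 to 66.9 FPKM in shZNF148. The tumour suppressor APC, another scaffold of the complex, was 3.29, 3.87 and 2.96 FPKM in shCtr and 4.10, 3.93 and 4.09 FPKM in shZNF148 (limma adjusted p = 0.217).

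ROR1, on chromosome 1 from 63774017 to 64181498 (plus strand), encodes a receptor tyrosine kinase-like protein that binds Wnt ligands of the WNT5A type. It was 8.67, 11.1 and 10.1 FPKM in shCtr replicates 1, 2 and 3, and 18.1, 19.6 and 14.7 FPKM in shZNF148 replicates 1, 2 and 3. The groups did not overlap, and shZNF148 replicate 2 was the highest sample. The mean rose from 9.94 ± 1.21 to 17.5 ± 2.54 FPKM (mean ± SD, n = 3 per group), 1.76-fold. As a log2 fold change this was 0.75 (standard error 0.13, 95% interval 0.44 to 1.06, limma adjusted p = 0.0217). Without shCtr replicate 1, 2 or 3, or without shZNF148 replicate 1, it was 0.66, 0.82, 0.76 and 0.72, with limma adjusted p = 0.0908, 0.0531, 0.0837 and 0.0606. With a pseudocount of 5 FPKM it was 0.58, just under 1.5-fold.

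**Figure D2:**
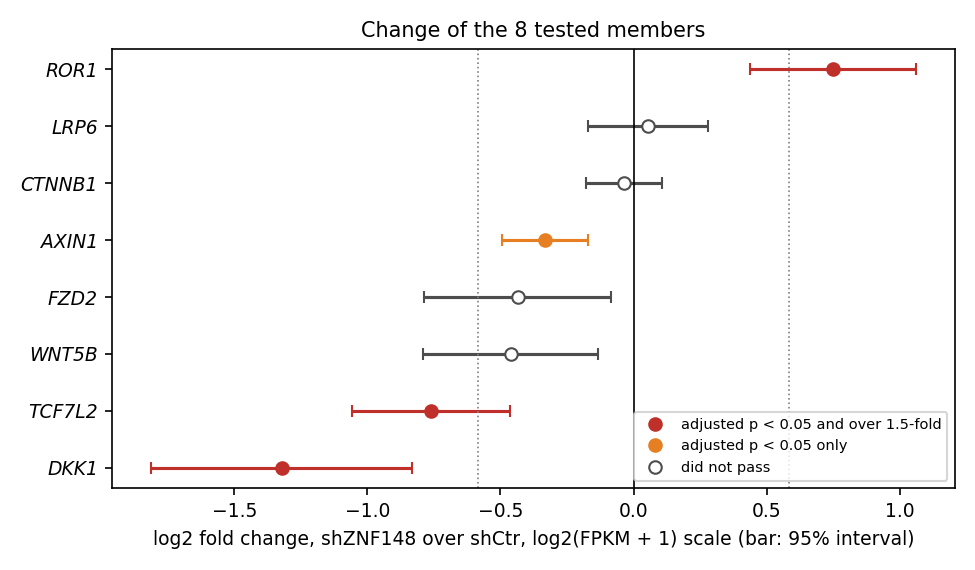
Log2 fold change of shZNF148 over shCtr for the 8 tested members on the log2(FPKM + 1) scale, with 95% intervals from limma; dotted lines mark 1.5-fold. DKK1 (-1.32), TCF7L2 (-0.76) and ROR1 (0.75) lie beyond the dotted lines and passed the adjusted test, AXIN1 (-0.33) passed it inside the lines, and the other 4 did not pass.

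The co-receptors and other Wnt receptors moved in both directions. LRP6, on chromosome 12 from 12116025 to 12267044 (minus strand), was 6.20, 6.14 and 6.34 FPKM in shCtr replicates 1, 2 and 3, and 6.67, 5.75 and 7.16 FPKM in shZNF148 replicates 1, 2 and 3. The shZNF148 values lay on either side of the shCtr values, and the log2 fold change was 0.05 with a 95% interval of -0.17 to 0.28 (limma adjusted p = 0.722). LRP5, the related co-receptor, fell from 70.5 ± 3.54 to 54.5 ± 4.04 FPKM (mean ± SD, n = 3 per group; log2 fold change -0.37, limma adjusted p = 0.0309), under 1.5-fold. LRP5 did not pass without shCtr replicate 1, 2 or 3 or shZNF148 replicate 1 or 3 (limma adjusted p = 0.119, 0.0880, 0.0867, 0.0747 and 0.0559).

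PTK7, a pseudokinase receptor of the planar cell polarity branch, was 46.6, 44.7 and 43.6 FPKM in shCtr and 27.7, 33.9 and 26.4 FPKM in shZNF148. The groups were apart, and the log2 fold change was -0.61 (standard error 0.10, limma adjusted p = 0.0200). It was not called without shCtr replicate 1, 2 or 3 or shZNF148 replicate 1 (limma adjusted p = 0.0912, 0.0617, 0.0768 and 0.0578), and without shZNF148 replicate 3 it passed the adjusted p at a log2 fold change of -0.54, under 1.5-fold. ROR2, the relative of ROR1, was listed at 0 in all 6 samples. Of the 6 genes in this group, 5 were tested, of which ROR1 rose, PTK7 and LRP5 fell, and LRP6 and RYK did not pass. These 1 higher and 2 lower at the adjusted p stand beside 5.46% and 8.13% of all tested rows.

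FZD2, on chromosome 17 from 44557484 to 44561262 (plus strand), encodes a Frizzled receptor. It was 14.7, 12.8 and 13.6 FPKM in shCtr replicates 1, 2 and 3, and 11.6, 7.69 and 10.7 FPKM in shZNF148 replicates 1, 2 and 3. All shZNF148 values were below all shCtr values, with replicate 2 well under the other two. The log2 fold change of -0.43 (standard error 0.15, 95% interval -0.79 to -0.08) did not pass (limma adjusted p = 0.0930), and without shZNF148 replicate 2 it was -0.27.

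Of 10 Frizzled genes, 6 were tested and 1 was higher at the adjusted p, beside 5.46% of all tested rows. This was FZD1, rising from 5.88 ± 0.217 to 8.86 ± 1.23 FPKM (mean ± SD, n = 3 per group; log2 fold change 0.51, limma adjusted p = 0.0313). FZD1 did not pass without shCtr replicate 1, 2 or 3 or shZNF148 replicate 1 (limma adjusted p = 0.106, 0.0874, 0.1002 and 0.0760), nor without the filter (0.0520). The most abundant receptors were FZD6, at 29.3 ± 0.270 FPKM in shCtr and 29.9 ± 1.71 FPKM in shZNF148, and FZD7, at 27.5 ± 0.0493 and 31.7 ± 1.47 FPKM (mean ± SD, n = 3 per group). The limma adjusted p was 0.787 for FZD6 and 0.0738 for FZD7. FZD4, which had 2 rows, was 5.15 ± 0.293 and 6.93 ± 0.701 FPKM in its higher one (mean ± SD, n = 3 per group; limma adjusted p = 0.0527).

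WNT5B, on chromosome 12 from 1529891 to 1647212 (plus strand), encodes a ligand mostly linked to signalling without beta-catenin. It was 10.9, 11.9 and 11.5 FPKM in shCtr replicates 1, 2 and 3, and 8.61, 6.33 and 9.46 FPKM in shZNF148 replicates 1, 2 and 3. All shZNF148 values were below all shCtr values, and replicate 2 was the lowest. The log2 fold change of -0.46 (standard error 0.14, 95% interval -0.79 to -0.13) did not pass (limma adjusted p = 0.0691).

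WNT5A, on chromosome 3 from 55465715 to 55490539 (minus strand), encodes the closest relative of WNT5B. It was listed at 0 in 5 samples and at 0.0191 FPKM in shCtr replicate 2, and was not tested. Of all 19 human Wnt ligand genes, 4 passed the filter, and 4 were listed at 0 in every sample. WNT5B was the highest ligand and WNT9A the next. WNT9A was 2.75, 2.29 and 2.65 FPKM in shCtr and 5.15, 6.59 and 4.16 FPKM in shZNF148. The groups did not overlap, and WNT9A rose with a log2 fold change of 0.81 (standard error 0.16, limma adjusted p = 0.0261). It lost its pass without shCtr replicate 1, 2 or 3 or shZNF148 replicate 1 (limma adjusted p = 0.0940, 0.0778, 0.0889 and 0.0655).

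Both genes needed to export Wnt ligands were expressed. PORCN, the acyltransferase that attaches a lipid to Wnt proteins, was 19.5, 20.5 and 17.1 FPKM in shCtr and 12.6, 13.8 and 9.81 FPKM in shZNF148. It fell with a log2 fold change of -0.62 (standard error 0.13, limma adjusted p = 0.0326). The pass was lost without shCtr replicate 1, 2 or 3 or shZNF148 replicate 1 (limma adjusted p = 0.119, 0.0916, 0.0863 and 0.0699) and without the filter (0.0502), and without shZNF148 replicate 3 its log2 fold change of -0.49 was under 1.5-fold. WLS, the carrier that takes ligands to the cell surface, averaged 21.7 ± 0.968 FPKM in shCtr and 25.8 ± 1.77 FPKM in shZNF148 (mean ± SD, n = 3 per group) and did not pass (limma adjusted p = 0.0825).

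**Figure D3:**
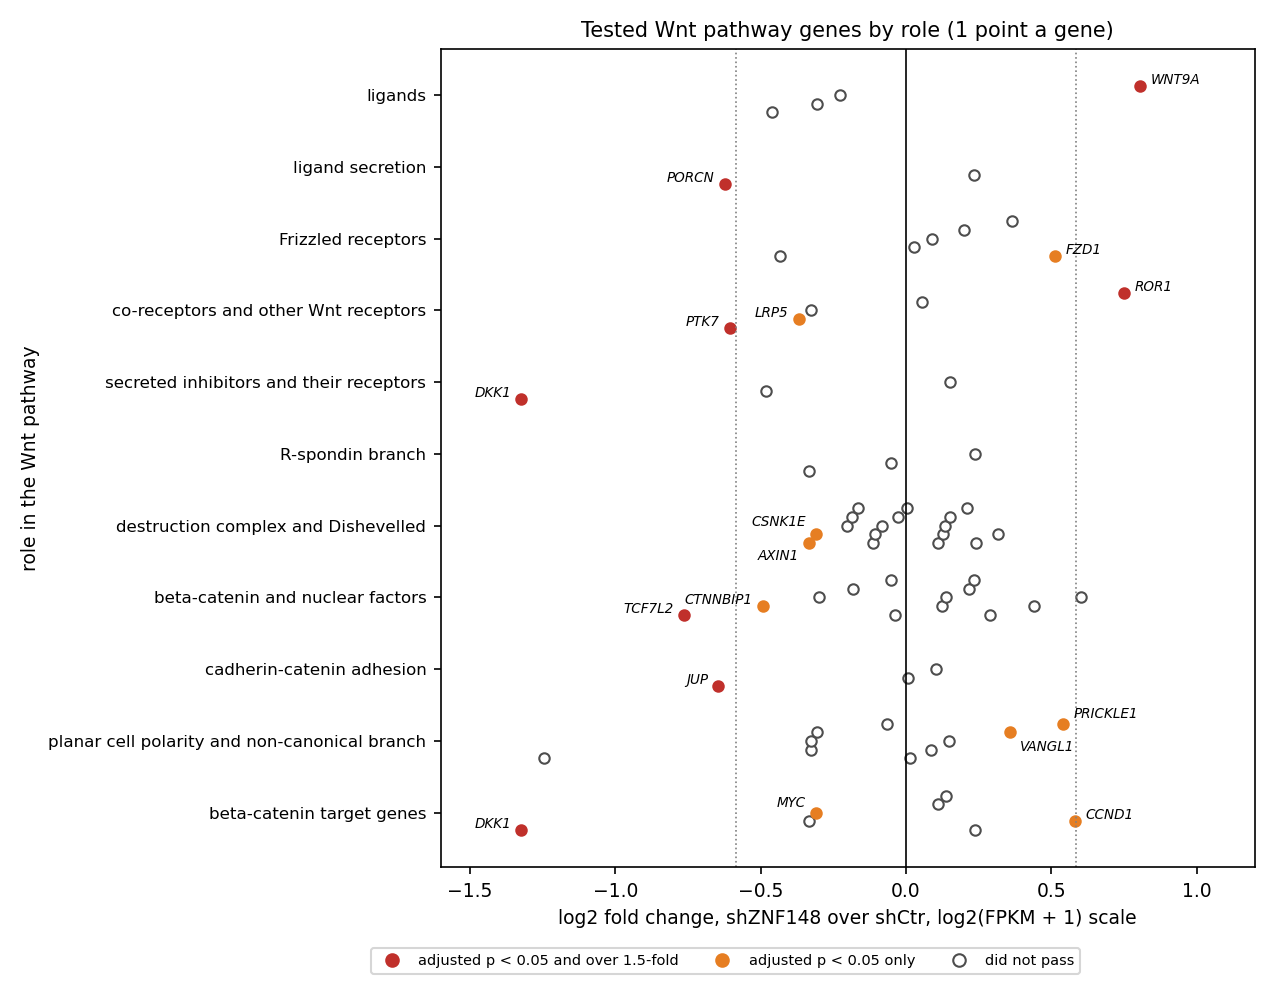
Log2 fold change of shZNF148 over shCtr on the log2(FPKM + 1) scale for the 69 tested pathway genes, 1 point a gene, in rows by role; genes that are also targets appear in both rows, and dotted lines mark 1.5-fold. Red points are the 7 called genes, orange points passed the adjusted p alone, and the largest unfilled value, at -1.24, is the joined row of SCRIB.

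Across the wider pathway, 121 genes in 11 lists by role were all found in the table, AMER1 under its older symbol FAM123B, and 69 passed the filter. Of these, 2 were called higher (WNT9A and ROR1) and 5 lower (DKK1, TCF7L2, PTK7, JUP and PORCN). Over all 11777 tested rows 1.83% were called higher and 3.66% lower, which sets the scale for these counts. At the adjusted p alone 6 pathway genes were higher and 10 lower, beside 5.46% and 8.13% of all tested rows. The median log2 fold change was 0.00 for the 69 genes and 0.01 for all tested rows.

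Of the 8 tested members, 1 was called higher and 2 lower, and at the adjusted p alone 1 was higher and 3 lower. All shZNF148 values lay above all shCtr values in 1 member and below them in 5, beside 20.0% and 21.0% of all tested rows. The members' median log2 fold change was -0.38. With so few genes, chosen by name with earlier results of these data known, these counts describe the members only. The number of the 69 pathway genes called, 7, was 0, 1 and 0 without shCtr replicate 1, 2 and 3, 3 without shZNF148 replicate 1, and 1 with a pseudocount of 5 FPKM. The gene called without shCtr replicate 2 was CCND1, which is not among the 7, so 0 of the 7 were called when any 1 of the shCtr samples was left out. Without shZNF148 replicate 1 the 3 were DKK1, TCF7L2 and CCND1.

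**Figure D4:**
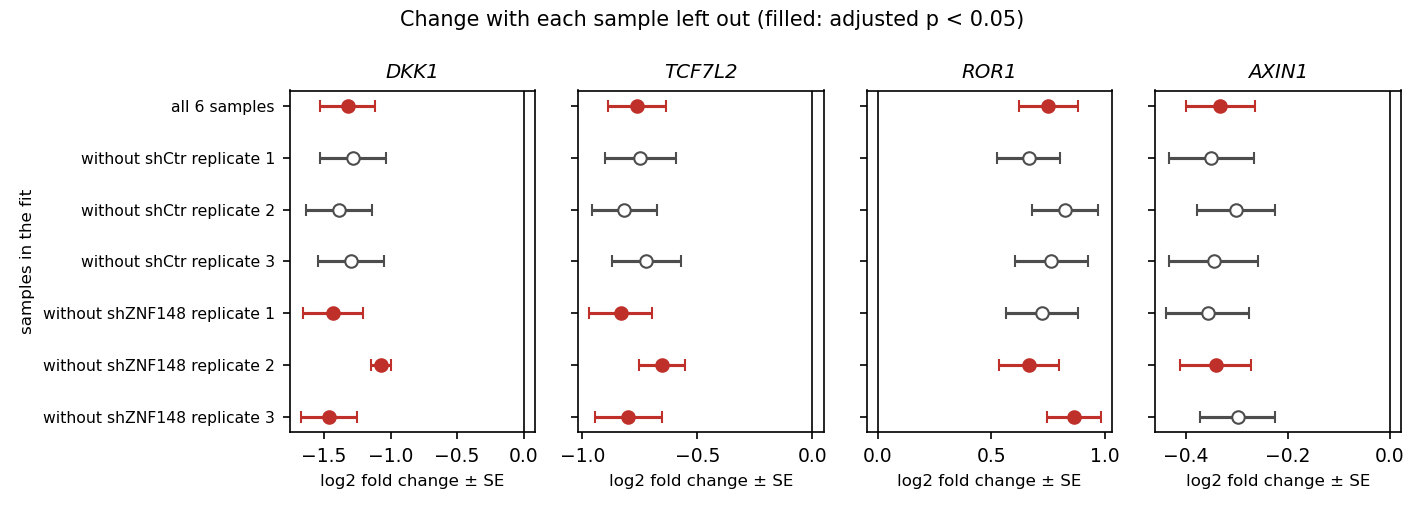
Log2 fold change ± SE of the 4 members that passed the adjusted test, with all 6 samples and with each sample left out; filled points have an adjusted p under 0.05. The direction is the same in every fit, and each of the 4 loses its pass when any 1 of the shCtr samples is left out.

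In 5 of the 8 tested members (WNT5B, DKK1, FZD2, TCF7L2 and ROR1) shZNF148 replicate 2 lay farthest from the shCtr mean. Over all tested rows that sample was the farthest in 50.3%. It was also the sample with the lowest ZNF148 value, 0.282 FPKM, and without it the log2 fold change was -1.07 for DKK1, -0.65 for TCF7L2 and 0.67 for ROR1, and all 3 were still called.

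Of 15 genes that beta-catenin is known to activate, 7 were tested, with a median log2 fold change of 0.11. At the adjusted p 1 was higher and 2 were lower, beside 5.46% and 8.13% of all tested rows. CCND1, which encodes the cell cycle regulator cyclin D1, rose from 115 ± 11.0 to 172 ± 10.4 FPKM (mean ± SD, n = 3 per group; log2 fold change 0.58, limma adjusted p = 0.0169), at the edge of the 1.5-fold threshold. MYC, the proto-oncogene transcription factor, fell from 85.8 ± 6.72 to 68.9 ± 2.93 FPKM (mean ± SD, n = 3 per group; log2 fold change -0.31, limma adjusted p = 0.0431). This pass of MYC did not hold when any 1 of the 6 samples was left out (limma adjusted p between 0.0625 and 0.143), with quantile normalization (0.0784), without the filter (0.0555) or without the mean-variance trend (0.0595). CCND1 did not pass without shCtr replicate 1 or 3 (limma adjusted p = 0.0767 and 0.0729). DKK1, also in this list, fell as given above, whereas SP5, RNF43, ZNRF3 and LEF1 did not pass.

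RNF43 and ZNRF3, the ubiquitin ligases that remove Frizzled receptors from the cell surface, had values on opposite sides. RNF43 was 1.54, 1.42 and 1.54 FPKM in shCtr and 1.12, 0.853 and 0.991 FPKM in shZNF148 (limma adjusted p = 0.106). ZNRF3 was 1.86, 1.71 and 1.82 FPKM in shCtr and 2.34, 2.18 and 2.38 FPKM in shZNF148 (limma adjusted p = 0.151). LGR4, the R-spondin receptor of highest level, ranged from 2.49 to 3.14 FPKM in shCtr and from 2.35 to 2.96 FPKM in shZNF148.

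In the planar cell polarity and non-canonical branch, 10 of 12 genes were tested and 2 passed the adjusted p, both higher and both under 1.5-fold on the log2(FPKM + 1) scale, beside 5.46% of all tested rows. VANGL1, a core polarity protein of the membrane, rose from 10.3 ± 0.653 to 13.4 ± 0.254 FPKM (mean ± SD, n = 3 per group; log2 fold change 0.36, limma adjusted p = 0.0302). PRICKLE1, its cytoplasmic partner, was 0.844, 1.12 and 0.984 FPKM in shCtr and 2.00, 1.66 and 1.99 FPKM in shZNF148. The means of PRICKLE1 differed 1.92-fold, which on that scale was a log2 fold change of 0.54 (limma adjusted p = 0.0382), and 0.88 with a pseudocount of 0.1 FPKM. Neither gene passed without shCtr replicate 1, 2 or 3 or shZNF148 replicate 1 or 3, where the limma adjusted p was 0.117, 0.0563, 0.111, 0.0801 and 0.0592 for VANGL1 and 0.128, 0.0747, 0.113, 0.0962 and 0.0811 for PRICKLE1. DAAM1, which links Dishevelled to actin, was 14.5 ± 0.674 and 16.2 ± 0.811 FPKM (mean ± SD, n = 3 per group) and did not pass (limma adjusted p = 0.197). The row that joins SCRIB and MIR937 was at 255 FPKM in shCtr replicate 2 and between 21.0 and 25.7 FPKM in the other 5 samples, so its group means are not compared.

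The tested rows most like DKK1, the member of smallest p-value, were sought by Pearson correlation of log2(FPKM + 1) over the 6 samples. They were TMEM65 (r = 0.999), C12orf75 (r = 0.998) and EXPH5 (r = 0.998). For DKK1 the values of the 6 samples form 2 separate groups, and 596 rows had r above 0.95, so the order among them is a description only. TMEM65 was 11.0, 10.6 and 11.2 FPKM in shCtr and 7.05, 5.24 and 7.34 FPKM in shZNF148, with the lowest value in replicate 2, as for DKK1.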

How the data were processed

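RNA-seq of 6 MDA-MB-231 samples (3 shCtr and 3 shZNF148) was used. The deposited values were FPKM, in 1 table with a column for every sample and 0 columns unused. The submitters' processing notes name bcl2fastq 2.17.1.14, TopHat2 2.0.14, Cufflinks 2.2.1 and Cuffnorm 2.2.1 with the builds hg18 and hg19, whereas the methods of the study name Salmon, GRCh38 and DESeq2. Which of these made the FPKM values, with which annotation and scaling, is not given in the sources used here. FPKM values are not counts, so the study's count test was replaced by limma 3.58.1 in R 4.3.3 (mean-variance trend, condition as the only term). Where a gene had several rows, the one of highest mean was used. The pseudocount was 1 FPKM, the filter a mean of at least 1 FPKM, and adjustment was by Benjamini-Hochberg over 11777 rows. An exact two-sided permutation test of a single gene of 3 samples against 3 reaches 0.1 at the smallest, and gave 0.1 for DKK1, TCF7L2, ROR1, AXIN1, WNT5B and FZD2. Gene positions were taken from GENCODE release 44 (GRCh38), and promoters from RefSeq. The fit was tested on simulated data in which the changes were larger than that of any member. The simulated spread between samples was set in advance and not estimated from these data. Recovery of smaller changes, or under a larger spread, was not tested. Summaries and figures were made in Python 3.11.15 (pandas 2.3.3, matplotlib 3.10.9).

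Named genes were ZNF148, the members, and from 11 pathway lists those past the adjusted p and the 2 of highest mean; other named genes (SOST, APC, RYK, TCF7L1, LEF1, FZD4, SP5, RNF43 and those listed at 0 or below the filter) were chosen after their values were seen. Members and lists were chosen with earlier results of these data known. Alternatives covered the filter, the pseudocount, the scaling, the variance model, the replicate number as a block, the summing of rows and leaving out each sample.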

Additional observations from a re-analysis of the deposited data

How the results depend on the processing

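With all 6 samples, 647 rows were called (216 higher, 431 lower), with 3 members and 7 pathway genes among them. With a pseudocount of 5 FPKM the counts were 280 rows (76 higher, 204 lower), 1 member (DKK1) and 1 pathway gene (DKK1). With the replicate number as a block, which the values do not show to pair the samples (correlations of the deviations of same-numbered samples of 0.001, -0.088 and 0.030), they were 315 rows (99 higher, 216 lower), 3 members and 6 pathway genes, with WNT9A (limma adjusted p = 0.0643) and AXIN1 (0.0716) no longer passing, nor FZD1 (0.0724), LRP5 (0.0590), CSNK1E (0.0649), CTNNBIP1 (0.0687), VANGL1 (0.0775), PRICKLE1 (0.0975) and MYC (0.0710). Leaving out 1 sample gave 29 to 608 rows (3 to 222 higher, 26 to 397 lower), 0 to 3 members and 0 to 9 pathway genes; the lowest counts came without shCtr replicate 1 (29 rows) and shCtr replicate 3 (47 rows), and the cause was not tested. Under the other filters, pseudocounts, scalings and the variance model, DKK1, TCF7L2, ROR1 and AXIN1 stayed at an adjusted p of at most 0.0375, whereas PORCN (0.0502) and FZD1 (0.0520) did not pass without the filter, and CTNNBIP1 and MYC did not pass in 3 of these settings each. The signs that turned were those of CTNNB1 with quantile normalization (0.016) and of LRP6 without shZNF148 replicate 3 (-0.0071, range over samples left out -0.0071 to 0.13), neither of which passed in any fit. The unknown read number limits the values of AXIN2, WNT5A and other genes near or below 1 FPKM.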

Other observations

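Of the 121 pathway genes, 52 were below the filter on low values. With the filter lowered to a mean of 0.1 FPKM, 16 of these could be fitted, with limma adjusted p-values from 0.0742 to 0.884. In 4 of them the groups did not overlap (2 higher and 2 lower), a smaller share than among all tested rows, where 20.0% were apart and higher and 21.0% apart and lower; their values are given as a description. TNFRSF19, a receptor of the tumour necrosis factor family and a beta-catenin target, was 0.761, 0.621 and 0.589 FPKM in shCtr and 0.418, 0.126 and 0.293 FPKM in shZNF148. The ligand WNT10A was 0.929, 0.901 and 1.42 FPKM in shCtr and 0.777, 0.647 and 0.577 FPKM in shZNF148. The secreted inhibitor SFRP1 was 0.0789, 0.0724 and 0.0250 FPKM in shCtr and 0.559, 0.235 and 0.228 FPKM in shZNF148. N-cadherin (CDH2) was 0.565, 0.395 and 0.486 FPKM in shCtr and 0.596, 0.892 and 1.24 FPKM in shZNF148. At these levels the number of reads, which is unknown, may be small.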
